A study of Mus musculus with 4 samples.

Results

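Hox genes encode homeodomain transcription factors that lie in 4 clusters and give cells their position along the body axis. Within a cluster, the order of the genes follows the order in which they are expressed in the embryo: low-numbered (anterior) paralogue groups come first in time and furthest towards the head, and high-numbered (posterior) groups come later and further towards the tail. In embryonic stem cells the clusters are known as a classic target of Polycomb repression, and retinoic acid and caudal factors are known to switch them on. The genes described here are those whose platform symbol is Hoxa, Hoxb, Hoxc or Hoxd followed by a number. They numbered 33 of the 18193 genes with a value. A gene with several probe sets was read from the brightest of them, averaged over the 4 arrays.

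Affymetrix arrays were hybridized with biotin-labelled cRNA made from total RNA. Mouse embryonic stem cells were sampled in duplicate at day 0, and the epiblast-like tissue they formed was sampled in duplicate at day 3. The tissue came from SFEBq culture, in which dissociated stem cells quickly re-aggregate and float in medium without serum. All 4 samples carry the same cell type label, differentiated mouse embryonic stem cells, and the labels do not name the cell line, its genotype or the additives of the medium. Nothing says that duplicates came from separate cultures, so p-values measure only how these arrays spread, possibly a technical spread. The number of arrays limits the precision.

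Marker genes were read beside the labels. Their lists were chosen with earlier results of these data known, so they are not an independent check. All 10 genes of naive pluripotency fell (median log2 difference -2.88) and all 10 epiblast genes rose (median 3.44), Fgf5, which marks the epiblast, being one of them. Of 15 genes of primitive and visceral endoderm 11 rose and 2 fell (median 1.70), so that extra-embryonic endoderm transcripts increased in the same day 3 samples. Fibroblast genes, as feeder cells would carry, rose in 4 of 14 cases and fell in 2, with no call for the other 8. The median level of the list was 5.10 and 5.05 on the day 0 arrays and 5.40 and 5.45 on the day 3 arrays. Thy1, a surface protein gene, rose by 1.82 ± 0.10 and Mmp2, a matrix protease gene, by 1.79 ± 0.12, and Dcn and Col1a2 were the other 2 that rose. Tagln, a gene of the actin cytoskeleton, fell by 1.31 ± 0.11, and Acta2 was the other that fell. The collagen genes Col3a1 (2.87 to 3.05) and Col1a1 (4.53 to 4.86) were not called. Of 9 anterior neural genes 3 rose and 1 fell, and of 10 trophectoderm genes 4 rose and 3 fell. The part of these cells in the Hox values was not tested. In whole cultures, fewer cells of a type and less RNA per cell cannot be told apart.

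Hox genes were mostly below the arrays' median level on both days, and no member was called higher at day 3. Of the 33 genes, 0 were called higher and 2, Hoxb9 and Hoxb13, were called lower with limma when the Benjamini-Hochberg adjusted p, taken over all genes, had to be under 0.05. At an unadjusted p under 0.05, 2 were higher (Hoxc6 and Hoxd3) and the same 2 were lower; without the intensity trend in the variance, Hoxc6 and Hoxd3 were called higher. By the unadjusted rule 23.8% of all genes and 17.4% of genes at the members' levels were higher. Over all genes 20.9% were called higher and 21.4% lower, and 42.3% were called in either direction. Among the 9305 genes whose mean level lay between the lowest and the highest Hox value, 14.2% were higher and 10.2% lower, 24.3% in all. A called change of at least 2-fold was found for 0 Hox genes, for 10.2% of all genes and for 8.16% of genes at the members' levels. The median difference of the Hox genes was -0.01 on the log2 scale (day 3 minus day 0), against 0.01 over all genes. The median size of a difference regardless of sign was 0.12, against 0.21 over all genes and 0.16 over genes at the members' levels.

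**Figure D1:**
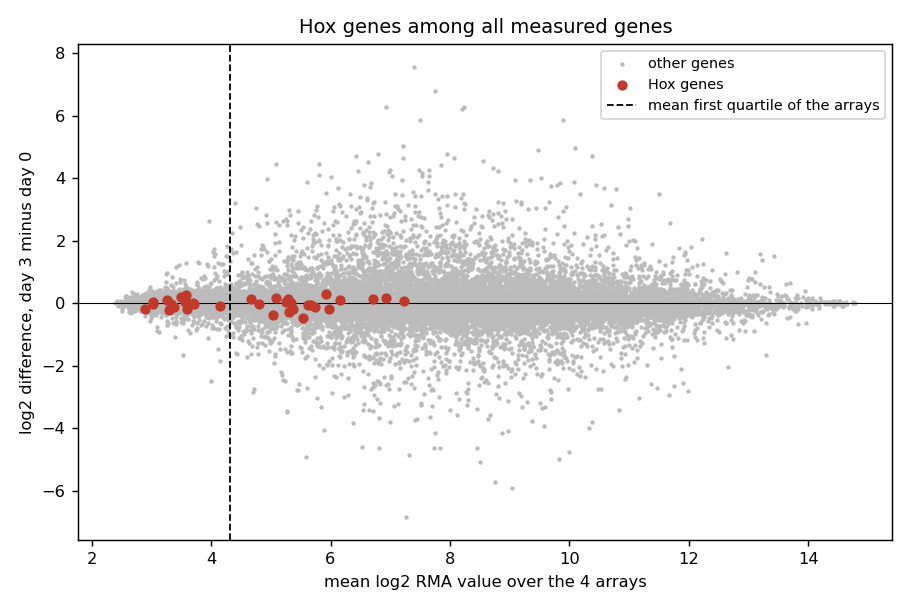
Each point is a gene, with its mean log2 value over the 4 arrays on the horizontal axis and its log2 difference (day 3 minus day 0) on the vertical axis; red points are the 33 Hox genes and the dashed line is the arrays' mean first quartile. The Hox genes lie between -0.46 and 0.31 on the vertical axis, while other genes reach -6.84 and 7.57.

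The size of each Hox difference was bounded by an interval whose variance leaned on other genes more than on the gene's own replicates. A prior of about 8.02 degrees of freedom stood beside 2 residual ones per gene. Hoxd12, for example, had replicate SDs of 0.0073 at day 0 and 0.00011 at day 3 but an SE of 0.12. The standard error of a difference was between 0.11 and 0.15, and the 95% confidence interval of the fit lay within a 2-fold change for all 33 genes. For 28 genes it lay within 0.5 on the log2 scale; the other 5 were Hoxa3, Hoxb9, Hoxb13, Hoxc6 and Hoxd3. These intervals hold for the values as normalized, and RMA compresses differences of dim probe sets. Day 0 and day 3 values were fully separated for 16 of the 33 genes, against 69% of all genes and 55.7% of genes at the members' levels. A separation of this kind can be tiny: Hoxd12, a posterior gene of the HoxD cluster, was at 3.69 and 3.70 at day 0 and at 3.71 on both day 3 arrays.

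**Figure D2:**
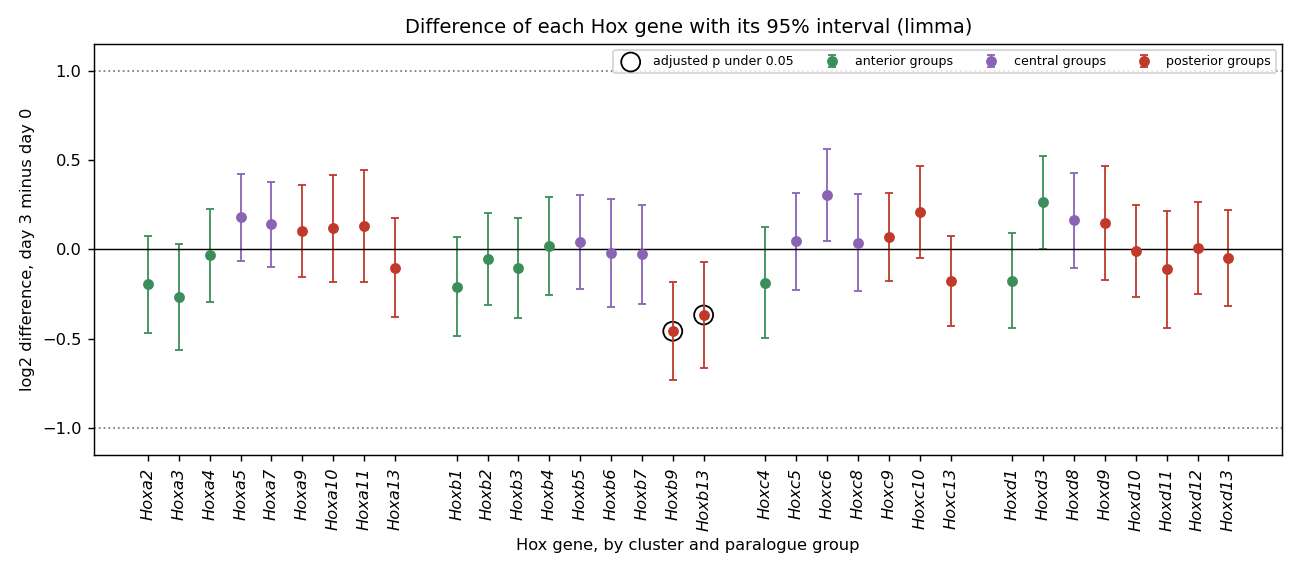
Points give the log2 difference (day 3 minus day 0) of each Hox gene, bars its 95% confidence interval from limma, colours the position of its paralogue group, and circles the genes with an adjusted p under 0.05; dotted lines mark a 2-fold change. No interval reaches a dotted line, and the 2 circled genes, Hoxb9 and Hoxb13, lie at -0.46 and -0.37.

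Levels were read against the arrays' first quartile, 4.30 to 4.33 on the log2 scale (mean 4.32). Of the 33 Hox genes, 19 were at or above it on both days and 14 were below it on both days, and no gene crossed it. The same 19 to 14 division was found when each array was held against its own quartile. Over all genes, 84.6% were at or above the quartile at day 0 and 85.0% at day 3. Only 5 Hox genes (Hoxa5, Hoxa7, Hoxa9, Hoxc9 and Hoxc13) were at or above the arrays' median on both days, and none reached the upper quartile on any array. The members nearest the quartile were Hoxa11 above it (4.60 at day 0, 4.73 at day 3) and Hoxa13 below it (4.20 and 4.10). No detection calls were used, and levels of different probe sets also depend on how well each binds its target, so a level above the quartile is not a detected transcript and the order of genes is not an order of abundance.

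**Figure D3:**
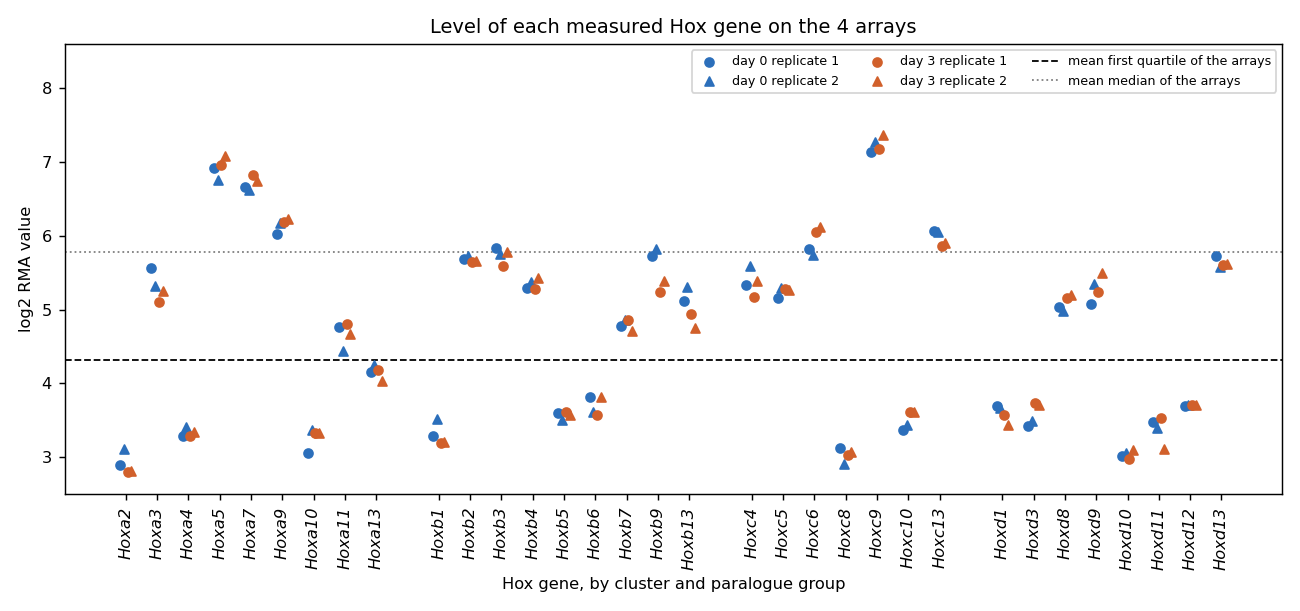
Each symbol is the log2 RMA value of 1 Hox gene on 1 array, with day 0 in blue, day 3 in orange, replicate 1 as circles and replicate 2 as triangles; the dashed and dotted lines are the arrays' mean first quartile and median. The 4 symbols of a gene lie close together, and 19 genes lie above and 14 below the dashed line on both days.

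The HoxB cluster on chromosome 11 held both called genes. Hoxb9, a posterior gene of the thoracic region, had log2 values of 5.72 and 5.82 at day 0 and 5.24 and 5.39 at day 3. Both day 3 arrays were below both day 0 arrays. Hoxb9 fell by 0.46 ± 0.12 (SE, limma adjusted p = 0.012), with a 95% interval of -0.73 to -0.18. Without day 3 replicate 1 the difference was -0.38 and was not called (adjusted p = 0.11), nor was it called with an unmoderated test per gene (0.12); over the alternatives the adjusted p ranged from 0.0061 to 0.12.

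Hoxb13, the most posterior gene of the cluster, known for its role in the prostate and tail bud, had values of 5.12 and 5.31 at day 0 and 4.94 and 4.75 at day 3. The days did not overlap, but the gap between the nearest arrays was small. Hoxb13 fell by 0.37 ± 0.13 (SE, limma adjusted p = 0.047), with a 95% interval of -0.66 to -0.07. That call was lost when day 0 replicate 2 was left out (-0.27, adjusted p = 0.21), and likewise for day 3 replicate 1 (-0.46, adjusted p = 0.076) or day 3 replicate 2 (-0.27, adjusted p = 0.26). It was also lost with the replicate number as a block (adjusted p = 0.058), without probe sets matching several transcripts (0.051) and with an unmoderated test per gene (0.23), and over the alternatives the adjusted p ranged from 0.027 to 0.26.

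The other 7 measured HoxB genes were not called. Hoxb2, a gene of hindbrain segments, was at 5.69 and 5.72 at day 0 and 5.65 and 5.66 at day 3. Hoxb3, of the posterior hindbrain, was at 5.83 and 5.75, then 5.59 and 5.79. Hoxb4, known for its effect on blood stem cells, was at 5.29 and 5.37, then 5.28 and 5.42. The days of Hoxb3 and Hoxb4 overlapped, and those of Hoxb2 were separated by a small gap. Hoxb7, a central gene, was at 4.77 and 4.86, then 4.86 and 4.71. Hoxb5 and Hoxb6 were below the first quartile on both days. So was Hoxb1, which gives the fourth hindbrain segment its identity and is among the first Hox genes to answer retinoic acid: it was at 3.29 and 3.52 at day 0 and 3.19 and 3.20 at day 3, a difference of -0.21 ± 0.12 (SE, limma adjusted p = 0.22).

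The HoxA cluster on chromosome 6 had 9 measured genes, and none was called. Hoxa5, a gene of the lung and lower neck, was at 6.92 and 6.76 at day 0 and 6.96 and 7.08 at day 3. Hoxa7, of the trunk, was at 6.66 and 6.62, then 6.82 and 6.74. Hoxa9, a regulator of blood progenitors, was at 6.03 and 6.17, then 6.18 and 6.22. In these 3 genes the day 3 arrays lay above the day 0 arrays by small amounts, with differences of 0.18, 0.14 and 0.10. Hoxa3, which is needed for the thymus and parathyroid, went the other way, from 5.56 and 5.33 to 5.10 and 5.25 (-0.27 ± 0.13, SE, limma adjusted p = 0.14). Hoxa11, of the uterus and limb, was at 4.76 and 4.44, then 4.80 and 4.66, and its days overlapped. The other 4, Hoxa2, Hoxa4, Hoxa10 and Hoxa13, were below the first quartile.

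The HoxC cluster on chromosome 15 held the member with the largest positive difference. Hoxc6, of the thoracic region and forelimb motor neurons, was at 5.82 and 5.74 at day 0 and at 6.05 and 6.12 at day 3. Its day 3 arrays lay above its day 0 arrays, but the difference, 0.31 with an SE of 0.12, missed the threshold (limma adjusted p = 0.055). Over the alternatives that adjusted p ranged from 0.028 to 0.21. Hoxc9, which sets thoracic motor neuron identity, had the highest values of any member, 7.13 and 7.27, then 7.17 and 7.36, and its days overlapped. Hoxc13, a gene of hair and nails, was at 6.06 and 6.05, then 5.86 and 5.91. Hoxc4 was at 5.33 and 5.59, then 5.17 and 5.38, and Hoxc5 at 5.16 and 5.29, then 5.28 and 5.26. Hoxc4 and Hoxc5 are neck-level genes, and the days of both overlapped. Hoxc8 and Hoxc10 were below the first quartile.

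The HoxD cluster on chromosome 2 had most of its genes below the first quartile, 5 of 8. Hoxd8 was at 5.04 and 4.98 at day 0 and 5.15 and 5.19 at day 3. Hoxd9, a gene of the lumbar region, was at 5.08 and 5.35, then 5.24 and 5.49. Hoxd13, a gene of the digits, was at 5.73 and 5.58, then 5.60 and 5.61. None of the 3 was called, and the days of Hoxd9 and Hoxd13 overlapped. Hoxd3, which shapes the first neck vertebrae, was at 3.42 and 3.49, then 3.73 and 3.71, below the quartile on every array. Both day 3 arrays were above both day 0 arrays, by 0.26 with an SE of 0.12, which limma did not call (adjusted p = 0.099, and 0.043 to 0.29 over the alternatives). Probe sets shared by Hoxd3 and Hoxd4 were left out by the rule, and Hoxd4 had no probe set of its own. The brighter shared probe set was at 6.64 and 6.65, then 6.94 and 6.71, above the arrays' median. The other was at 4.10 and 3.98, then 3.99 and 4.06, below the quartile. The remaining HoxD genes below the quartile were Hoxd1, Hoxd10, Hoxd11 and Hoxd12. Over all 4 clusters, the 14 genes below the quartile had day means between 2.80 and 4.20 and differences between -0.21 and 0.26.

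Compared by cluster, the median difference was 0.10 in HoxA (5 of 9 genes at or above the first quartile), -0.05 in HoxB (6 of 9), 0.05 in HoxC (5 of 7) and -0.0015 in HoxD (3 of 8). Compared by position, it was -0.14 for 10 anterior genes (groups 1 to 4), 0.05 for 9 central genes (groups 5 to 8) and -0.0015 for 14 posterior genes (groups 9 to 13). At or above the quartile were 5 of 10 anterior, 6 of 9 central and 8 of 14 posterior genes, on either day. Of the anterior genes 8 had a negative sign, and of the central genes 7 had a positive sign. With 1 array left out, and the brightest probe set chosen anew, the HoxA median lay between -0.041 and 0.081 and the HoxB median between -0.14 and -0.044. The HoxA median turned negative without either day 0 array. Without day 0 replicate 2, Hoxa4 was read from another probe set, at -0.30, and the negative sign there depended on that switch. The HoxC median lay between 0.0023 and 0.11 and the HoxD median between 0.0092 and 0.030, while anterior genes ran from -0.15 to -0.062, central genes from 0.062 to 0.15 and posterior genes from -0.014 to 0.030. None of the anterior or central genes was called, and genes are not replicates, so the difference between positions was not tested. Both called genes were posterior, and the other 12 posterior genes were not called. Genes above and below the quartile were found in each of the 3 position groups.

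Several Hox genes had more than 1 probe set, 11 of 33, and these often disagreed in level. Probe sets of 1 gene lay on both sides of the first quartile in 7 of the 11. Hoxa5 had probe sets with mean levels of 3.49 and 6.93, Hoxb3 of 3.06 and 5.74, and Hoxa9 of 3.65 and 6.15. The high value of Hoxa5 came from a probe set marked as able to bind several transcripts. The probe set kept is by rule the brighter one, so the count of 19 genes above the quartile is an upper reading; among all 48 single-symbol Hox probe sets, 23 were at or above it on both days alike. The differences had 1 sign in 7 of the 11 genes; among the probe sets of Hoxa3, of which there were 4, they ran from -0.41 to 0.15. When every probe set was tested in place of 1 per gene, a choice made after seeing the data, 0 Hox probe sets were called higher and 1, that of Hoxb9, lower.

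The stretch before the start of transcription is shown for a few members, to set their levels beside their base composition. RefSeq windows (GRCm38.p6) of the 250 bases before the start were found for 19 of the 33 genes, 21 windows in all. They held a median of 13 CG dinucleotides (2 to 35), against 6 over all 32851 windows of that length, and a median GC content of 59.2%, against 52.4%. Regions rich in CG are known as the sites where Polycomb complexes gather. Hoxa5 and Hoxa9, both above the arrays' median by the probe set kept, stood far apart, with 28 and 3 CG dinucleotides. Hoxa7, also above the median, had 7. Both Hoxa5 and Hoxa9 had another probe set below the first quartile. Capitals mark CG in both sequences, given 5′ to 3′ on the minus strand, for Hoxa5 at chr6:52204588-52204837 and for Hoxa9 at chr6:52227371-52227620.
Hoxa5: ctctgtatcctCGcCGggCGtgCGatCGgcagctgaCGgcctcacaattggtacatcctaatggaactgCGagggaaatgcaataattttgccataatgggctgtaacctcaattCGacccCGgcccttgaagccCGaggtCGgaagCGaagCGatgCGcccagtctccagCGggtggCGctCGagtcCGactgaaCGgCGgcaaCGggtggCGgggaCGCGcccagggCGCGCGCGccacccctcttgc
Hoxa9: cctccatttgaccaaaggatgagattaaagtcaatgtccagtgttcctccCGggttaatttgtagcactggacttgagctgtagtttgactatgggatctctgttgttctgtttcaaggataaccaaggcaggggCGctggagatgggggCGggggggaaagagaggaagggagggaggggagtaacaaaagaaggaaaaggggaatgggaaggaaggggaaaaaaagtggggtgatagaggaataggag

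Short motifs of known Hox regulators were searched on both strands of the same windows. The joint site of Hox and Pbx proteins, TGATNNAT, stood in 3 of 21 Hox windows (14.3%), those of Hoxa2, Hoxb1 and Hoxd11, against 7.68% of all windows. Hoxb1 is known to act on its own gene together with Pbx proteins, so its window is shown with that of Hoxa2, a gene of the second pharyngeal arch; both genes were below the first quartile on all 4 arrays. Capitals mark TGATNNAT or its reverse complement, for Hoxb1 on the plus strand at chr11:96365508-96365757 and for Hoxa2 on the minus strand at chr6:52164832-52165081.
Hoxb1: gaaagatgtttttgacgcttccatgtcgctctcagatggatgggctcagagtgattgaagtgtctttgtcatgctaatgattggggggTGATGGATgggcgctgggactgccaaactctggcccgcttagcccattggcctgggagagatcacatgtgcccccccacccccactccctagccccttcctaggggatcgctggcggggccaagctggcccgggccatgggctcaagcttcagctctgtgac
Hoxa2: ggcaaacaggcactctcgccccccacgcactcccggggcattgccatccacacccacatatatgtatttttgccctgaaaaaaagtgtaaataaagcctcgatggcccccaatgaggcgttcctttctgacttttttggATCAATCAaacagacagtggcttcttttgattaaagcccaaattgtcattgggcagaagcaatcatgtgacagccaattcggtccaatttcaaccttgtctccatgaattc

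A caudal site, TTTATG, stood in 3 Hox windows (14.3%, Hoxa7, Hoxd3 and one of Hoxd11) against 10.8% of all windows, and the TATA box, TATAAA, in 2 (9.52%, Hoxd13 and one of Hoxa10) against 12.4%. TTTATG and the reverse complement of TATAAA share their first 5 letters but cannot match at the same place. The DR5 site of retinoic acid receptors, a spaced direct repeat, stood in 0 Hox windows and in 0.198% of all windows. No match says only that these letters are not in these windows, and known retinoic acid sites of Hox clusters often lie elsewhere. The Hoxa7 window is shown because caudal proteins are known regulators of trunk Hox genes; capitals mark TTTATG, on the minus strand at chr6:52218574-52218823.
Hoxa7: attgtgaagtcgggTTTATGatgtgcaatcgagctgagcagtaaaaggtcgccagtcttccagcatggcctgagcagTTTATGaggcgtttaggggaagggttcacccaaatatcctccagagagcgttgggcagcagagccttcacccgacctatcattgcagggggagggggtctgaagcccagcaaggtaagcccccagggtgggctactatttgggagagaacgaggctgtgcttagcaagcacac

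Genes known to act on the Hox clusters or with Hox proteins were read in the same arrays. Of 16 measured genes of retinoic acid receptors and metabolism, 4 rose, 3 fell and 9 were not called (median 0.10). Cyp26a1, the enzyme that breaks retinoic acid down, went from 6.56 and 6.70 at day 0 to 9.99 and 9.68 at day 3, a rise of 3.21 ± 0.11 (SE, limma adjusted p = 5.9e-09). Crabp2, which carries retinoic acid to its receptor, rose by 2.06 ± 0.10 and Rdh10, which makes its precursor, by 1.55 ± 0.10. Without probe sets matching several transcripts the rise of Rdh10 was 0.86. Rarg, a retinoic acid receptor, fell by 0.98 ± 0.08, and Rxrg, a partner receptor, was the fourth gene that rose. Aldh1a2, which makes retinoic acid, fell by 0.60 ± 0.15 and Crabp1, which binds it, by 0.87 ± 0.10, so that genes for making and for binding it were found in both directions. Without probe sets matching several transcripts, 1 gene of the list fell in place of 3.

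Of 6 caudal and ParaHox genes, relatives of the Hox genes, 0 rose, 2 fell and 4 were not called (median -0.25, limma); at an unadjusted p under 0.05, 0 were higher. Cdx2, an activator of central and posterior Hox genes, was at 6.37 and 6.12 at day 0 and 5.59 and 5.67 at day 3, a fall of 0.61 ± 0.13 (SE, limma adjusted p = 0.0025). From the mean of its probe sets the difference was -0.37. Cdx1 fell by 0.49 ± 0.13 (adjusted p = 0.0095), a call lost without day 3 replicate 1 (-0.39, adjusted p = 0.092, with 0.0057 to 0.12 over the alternatives). Cdx4 was at 2.93 and 2.79, then 2.85 and 3.00, below the first quartile throughout. Gsx1 had a difference of -0.53 that was not called (adjusted p = 0.054); it rested on day 0 replicate 1, at 6.54 against 5.81 in replicate 2, and was -0.90 and called without replicate 2 but -0.17 without replicate 1.

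Of 8 measured Hox cofactors, 2 rose, 2 fell and 4 were not called (median -0.04). Pbx and Meis proteins bind DNA together with Hox proteins. Pbx3 went from 8.24 and 8.31 to 10.26 and 10.21, a rise of 1.96 ± 0.07 (SE, limma adjusted p = 9.6e-09), and kept the call in every alternative that gave it a value; it had none without probe sets matching several transcripts. Pbx2 fell by 0.53 ± 0.07. Meis1 fell by 0.96 ± 0.17, but it stood at 0.12, with no call, once probe sets that match several transcripts were left out (limma adjusted p = 0.48, the highest of its alternatives), and at -0.32 from the mean of its probe sets. Meis3 rose by 0.49 ± 0.15. Without probe sets matching several transcripts, 0 cofactors were called higher and 1 lower, and without day 0 replicate 1 or either day 3 replicate 1 was higher. Of 11 measured genes of the posterior axis and caudal epiblast, 3 rose, 1 fell and 7 were not called (median 0.03). Fgf8, a growth factor gene of the streak and tail bud, rose by 1.55 ± 0.20. Wnt5a, a signal of axis elongation, rose by 0.93 ± 0.14, or by 0.48 from the mean of its probe sets. Without day 0 replicate 1 another of its probe sets was the brightest, and that probe set rose by 0.55. Mixl1, a streak homeobox gene, rose by 0.44 ± 0.14; leaving out day 0 replicate 2 (0.38, limma adjusted p = 0.076) or day 3 replicate 1 (0.26, adjusted p = 0.27) ended that call, and its adjusted p ranged from 0.018 to 0.28 over the alternatives. Wnt3a, a signal of the caudal epiblast, fell by 0.34 ± 0.11, a call that ended without day 0 replicate 2 or either day 3 replicate.

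The Polycomb and trithorax complexes, which hold Hox genes off and on, had more genes that fell than rose, although many were not called. Of 27 measured Polycomb genes 4 rose, 10 fell and 13 were not called (median -0.11). Eed, a core subunit of Polycomb repressive complex 2, went from 12.90 and 12.87 to 11.63 and 11.59, a fall of 1.28 ± 0.05 (SE, limma adjusted p = 1.6e-08), or 0.83 from the mean of its probe sets. Its accessory subunit genes Mtf2 (-1.07 ± 0.06) and Jarid2 (-0.85 ± 0.07) fell as well, and Ezh2, the catalytic subunit, fell by 0.42 ± 0.06. Cbx2, a Polycomb repressive complex 1 subunit that binds the histone mark, rose by 0.72 ± 0.10. Without day 3 replicate 1, 2 Polycomb genes rose in place of 4. Of 13 measured trithorax and demethylase genes 2 rose, 7 fell and 4 were not called (median -0.18). Over all genes 20.9% were called higher and 21.4% lower. The Polycomb and trithorax lists had median day 0 levels of 9.78 and 10.40, against 6.92 over all genes, and no share was taken over genes at their levels. Ash2l, a core subunit of the histone H3 lysine methyltransferases, fell by 1.10 ± 0.06 and Kmt2c, one of those enzymes, by 0.99 ± 0.08. Psip1, a chromatin reader, rose by 0.65 ± 0.06; without day 0 replicate 2, without either day 3 replicate or with the replicate block, 1 gene of the list rose in place of 2. With an unmoderated test per gene, which has 2 residual degrees of freedom, Rdh10, Cdx1, Cdx2, Pbx2, Meis1, Fgf8, Wnt5a, Mixl1, Mtf2, Jarid2, Ezh2 and Kmt2c were not called, while Cyp26a1, Crabp2, Pbx3, Eed, Ash2l and Psip1 were.

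**Figure D4:**
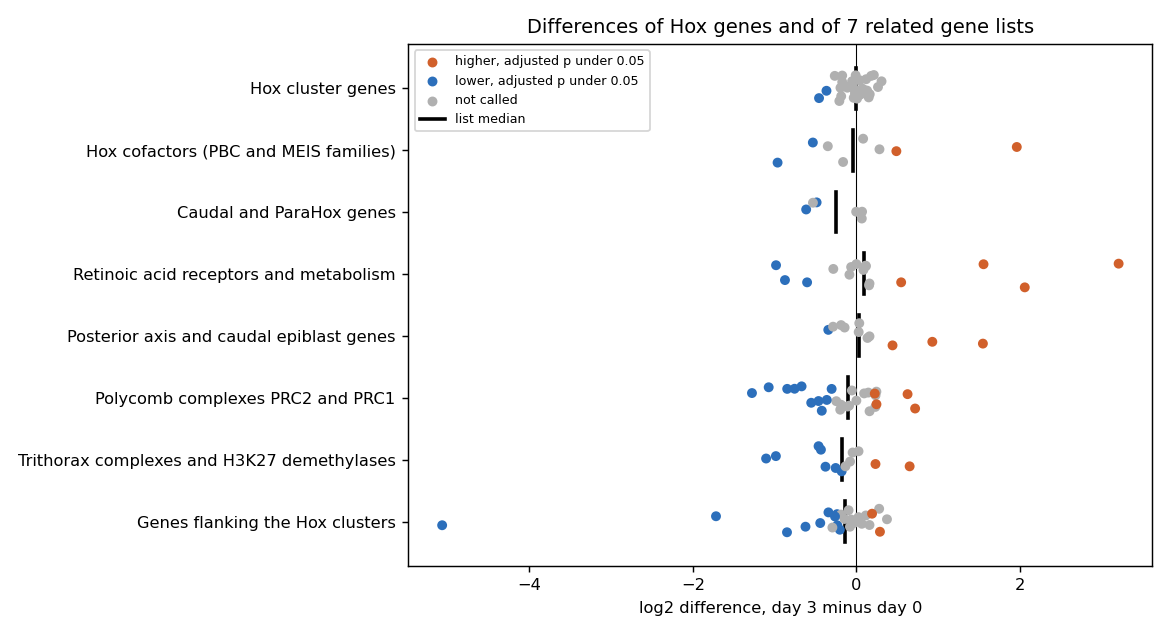
Each point is a gene, placed by its log2 difference (day 3 minus day 0) in the row of its list, with orange for genes called higher, blue for genes called lower and grey for genes not called; black bars are list medians. The Hox genes lie within -0.46 and 0.31, while single genes of the other lists reach 3.21 (Cyp26a1) and -5.07 (Calcoco2).

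Some genes beside the clusters differed by more than any gene within. Of a list of 25 genes near the 4 clusters, 2 rose, 10 fell and 13 were not called (median -0.15); without day 3 replicate 1 or 2 the falls numbered 6 and 5, and 1 gene rose. Of the 4 nearest coding genes on each side of every cluster, 30 had a value, of which 2 rose, 9 fell and 19 were not called (median -0.09). Over all genes 20.9% were called higher and 21.4% lower. The median day 0 level of these flanking genes was 10.20, against 5.01 for the Hox genes, and RMA compresses differences of dim probe sets. The part of level in the contrast between clusters and flanks was not tested. Calcoco2, an autophagy receptor gene on the posterior side of HoxB, went from 11.09 and 10.98 at day 0 to 6.05 and 5.89 at day 3, a fall of 5.07 ± 0.09 (SE, limma adjusted p = 9.6e-11). Skap2, an adapter gene beside the anterior end of HoxA, fell by 1.72 ± 0.08. Atp5g1, an ATP synthase subunit gene, fell by 0.85 ± 0.06, but by 0.17 and without a call when probe sets matching several transcripts were left out (adjusted p = 0.44, the highest of its alternatives).

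In RefSeq order the 6 genes Ube2z, Atp5g1, Calcoco2, Ttll6, Hoxb13 and Hoxb9 follow one another, and each was called lower. This run was singled out after the values were seen, and it did not hold under every alternative. Without probe sets matching several transcripts, neither Atp5g1 nor Hoxb13 was called. Ttll6, a tubulin-modifying enzyme gene, fell by 0.44 ± 0.12 (SE, limma adjusted p = 0.010) and Ube2z, a ubiquitin-conjugating enzyme gene, by 0.20 ± 0.07 (adjusted p = 0.031). The next measured gene, Hoxb7, was not called, nor were the other Hox genes as far as Hoxb1. The 4 nearest coding genes on the other side of HoxB were Skap1 (0.37, not called), Snx11 (-0.34, called), Cbx1 (0.11, not called) and Nfe2l1 (-0.23, called). In HoxA, HoxC and HoxD no measured Hox gene next to a flank was called.

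**Figure D5:**
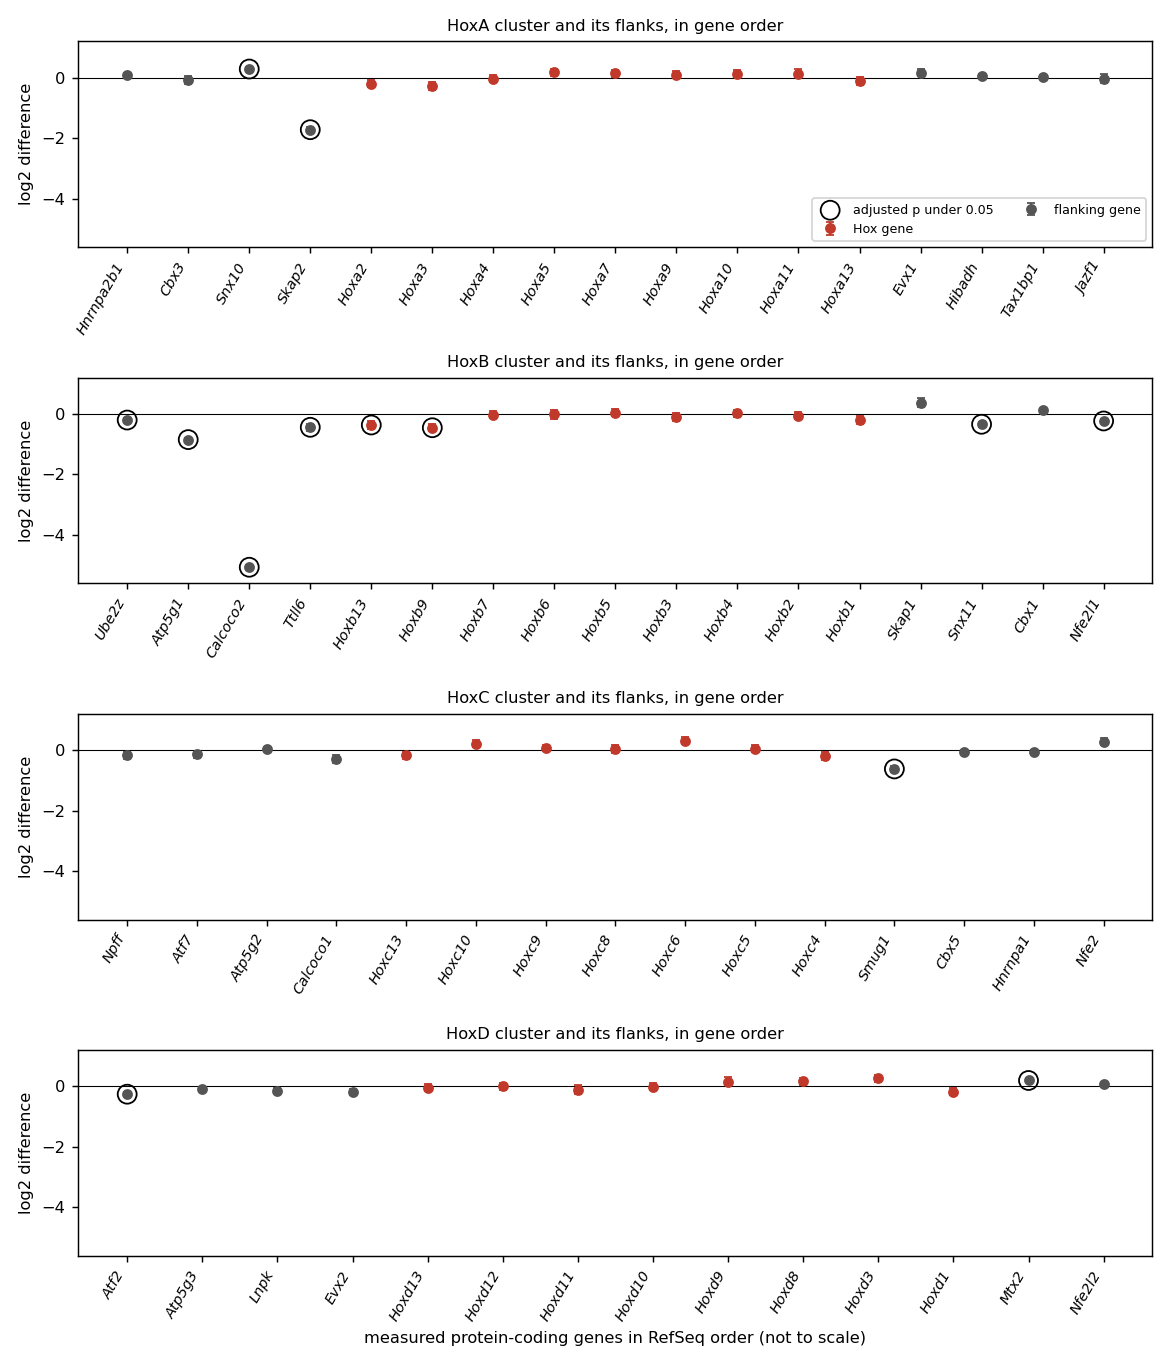
Each panel shows a Hox cluster and the 4 nearest protein-coding genes on each side in RefSeq order, not to scale; points are log2 differences (day 3 minus day 0), bars the SE, with Hox genes in red, flanking genes in grey and circles for adjusted p under 0.05; genes with no value are left out. Differences beyond 0.46 in size are those of flanking genes, with Calcoco2 at -5.07 and Skap2 at -1.72; the circled Hox genes are Hoxb9 at -0.46 and Hoxb13 at -0.37.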

How the data were processed

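The deposited table held log2 values for 45101 probe sets on 4 arrays. Per the submitters' processing notes, the authors used RMA (which corrects background, normalizes by quantiles and summarizes probes) and R 2.13.0; other settings were not stated in the labels. RMA values carry no detection call. Genes were named through the platform annotation from 34945 probe sets with 1 symbol; 932 with several symbols and 64 controls were left out. Of a gene's probe sets the brightest, averaged over the arrays, was kept. RefSeq tables (GRCm38.p6) gave gene order, chromosomes and promoter windows; all 33 Hox symbols matched.

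Day 3 was compared with day 0 in R 4.3.3 with limma 3.58.1 (lmFit, eBayes with intensity trend, no covariate, two-sided). P-values were adjusted by Benjamini-Hochberg across 18193 genes, and calls needed an adjusted p under 0.05. Each gene had 2 residual degrees of freedom, moderated by a prior of about 8.02. The procedure was tested on simulated data. The naming rule took all Hox members, the 3 members of each other list with the largest difference, and 7 set genes (Cdx1, Cdx2, Cdx4, Cyp26a1, Ezh2, Calcoco2, Otx2); of the marker lists other than fibroblast, few of these are printed. Rarg, Rxrg, Aldh1a2, Crabp1, Meis3, Wnt3a, Cbx2, Dcn, Col1a2, Acta2, Col1a1, Col3a1, Evx1, Evx2, the 4 antisense transcripts and the genes around HoxB fall outside the rule and were singled out after their values were seen. Per-array values were given for Hox genes called or at or above the first quartile, and outside that rule for Hoxb1, Hoxd3 and Hoxd12. The members and lists were chosen with earlier results of these data known. Alternatives changed the variance prior, normalization, probe set choice, filter, replicate block, threshold and the arrays used. The ranges of adjusted p over the alternatives leave out the test against a log2 difference of 1 (treat).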

Additional observations from a re-analysis of the deposited data

How the results depend on the processing

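The count of Hox genes called higher was 0 except without the intensity trend (2, Hoxc6 and Hoxd3) and among genes at or above the first quartile only (1, Hoxc6). The count called lower, 2, became 1 without probe sets matching several transcripts, with the replicate number as a block, and with every probe set tested (added after seeing the data). It became 0 with an unmoderated test per gene, an adjusted p under 0.01 or treat against a log2 difference of 1. With 1 array left out it was between 0 and 2, a lone array being assumed to vary like the others. Against the arrays' median in place of the first quartile, 6 genes were at or above it at day 0 and 6 at day 3. With 1 array left out, median differences ranged from -0.0279 to 0.0196 over all Hox genes, from -0.0407 to 0.0808 in HoxA, from -0.142 to -0.0441 in HoxB, from 0.00226 to 0.108 in HoxC, from 0.00921 to 0.0302 in HoxD, from -0.0135 to 0.0302 for posterior, from -0.152 to -0.0618 for anterior and from 0.0618 to 0.145 for central genes. Among genes at or above the first quartile the median was 0.150 in HoxD and 0.151 for central genes, and renewed quantile normalization gave -0.0227 in HoxD. Of 414 Hox differences under alternatives 20 changed sign, in 13 genes, with no call in either setting. Averaging probe sets gave -0.0764 for Hoxa10 and -0.0112 for Hoxc5, and Hoxd12 was -0.0248 after quantile normalization and -0.00217 after median centring. With 1 array left out, differences of Hoxa10 ranged from -0.0407 to 0.277, Hoxa11 from -0.0279 to 0.289, Hoxb4 from -0.0528 to 0.0937, Hoxb5 from -0.00827 to 0.0896, Hoxb6 from -0.142 to 0.106, Hoxb7 from -0.0987 to 0.0438. The others were Hoxc5 from -0.0172 to 0.108, Hoxc8 from -0.0676 to 0.145, Hoxc9 from -0.0242 to 0.165, Hoxd10 from -0.0730 to 0.0537, Hoxd11 from -0.318 to 0.0936, Hoxd13 from -0.123 to 0.0308. Outside the clusters, Cdx4 ranged from -0.0103 to 0.141, and Meis1 was 0.12 without probe sets matching several transcripts. The causes of these sign changes were not tested. Sox1, an anterior neural gene, ranged from -2.84 to 0.156, and its sign turned without either day 0 array. Its kept probe set was lower on both day 3 arrays than on both day 0 arrays, so leaving out 1 array cannot turn that sign. The turn depended on the brightest probe set being chosen anew, so it reflects a disagreement between probe sets of Sox1. The replicate numbers are only numbers: same-numbered samples' deviations correlated at -0.0167, and the replicate block changed 1 Hox call, that of Hoxb13 (adjusted p = 0.058).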

Other observations

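Transcripts annotated in or beside the clusters but outside the Hox symbols were also at low levels. Hoxb5os, annotated as opposite to Hoxb5 and Hoxb6, was at 5.08 and 4.94 at day 0 and 5.23 and 5.31 at day 3 (0.26 ± 0.12, SE, limma adjusted p = 0.13). Hoxa11os, Hoxd3os1 and Evx1os lay between 3.06 and 3.58 on all 4 arrays, and none was called.

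Evx1 and Evx2, homeobox genes at the posterior ends of HoxA and HoxD, were not called either. Evx1 lay between 4.96 and 5.17 on all 4 arrays, and Evx2 at 6.26 and 6.29, then 6.04 and 6.14.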
